A study of Mus musculus with 4 samples.

Results

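Expression of 52 genes of the extracellular matrix, taken by symbol from a written list, was examined among the 23235 gene symbols measured in mouse haploid embryonic stem cells (haESCs). The list was divided by role into 20 basement membrane genes, 19 genes of the fibroblast-type (interstitial) matrix, 7 matricellular genes and 5 lysyl oxidases. The last gene listed, Prrx1, encodes a homeobox transcription factor of mesenchymal cells and not a matrix protein. There were 2 samples treated with RDF and 2 treated with the solvent DMSO. RDF combines Repsox, which blocks TGF-β pathways, with DMH1, which blocks the BMP4 pathway, and Forskolin, which activates adenylate cyclase. The paper names the line as HG165, an androgenetic haESC line of C57BL/6 origin, so both groups share 1 line, and the dose and length of treatment of these samples are not given in the sources used here. The labels describe culture on feeder cells in serum and leukemia inhibitory factor, whereas the paper's methods state that feeders were left out of most experiments, with haploid percentage, morphology and alkaline phosphatase staining as the exceptions. RNA sequencing is not among the exceptions, and no source used here names the feeder condition of these samples.

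Levels are given as FPKM, fragments scaled to transcript length and to the number of mapped fragments, which can be compared between genes. Differences are RDF minus DMSO in mean log2(FPKM + 1), which understates the change of genes near 0. The 38 matrix genes whose mean over the 4 samples reached 1 FPKM were tested with limma in a fit over all 11733 genes that met this limit, and the 14 others are given by their values. The deposited values imply a depth of about 9700000 to 12300000 fragments per sample. Nothing states that the 2 samples of a group came from separate cultures. The adjusted p sets a difference against the spread between these samples, which limma moderates with that of the other genes. It cannot be taken to cover the spread between separate cultures. The 9 pluripotent cell markers were all well expressed, with means from 36.7 FPKM (the lowest) to 4276 FPKM (the highest) over the 4 samples. In bulk samples, fewer cells of a type and less RNA per cell cannot be told apart.

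The basement membrane is a thin sheet that underlies epithelia and surrounds the early embryo. Laminins, trimers of an α, a β and a γ chain, polymerise on cell surfaces through integrins and dystroglycan, type IV collagen forms the second network, and nidogens and heparan sulfate proteoglycans link both. Fibroblasts instead deposit fibrils of type I, III and V collagen, decorated by small leucine-rich proteoglycans and crosslinked by lysyl oxidases. TGF-β is a known inducer of many of these interstitial genes in fibroblasts.

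Most matrix genes that passed the test fell in RDF-treated haESCs. Of the 38 genes tested, 20 fell and 5 rose at an adjusted p under 0.05, that is 52.6% and 13.2%, whereas 8.28% of all genes tested fell and 13.3% rose (21.6% in either direction). A call with a difference of at least 0.5 on the log2 scale was made for 14 of the 38, beside 8.27% of all genes tested. The falls were headed by Col1a1, Postn, Lox and Col18a1, and the rises by Dcn, Tgfbi and Prrx1. Postn and Prrx1 have a mean under 1 FPKM in 1 group. They entered the test only through the group where they were high, so their calls add no support to these counts. Postn remains among the 20 falls and Prrx1 among the 5 rises, and both remain among the 14. Postn is also among the kept calls named below. Over all 52 listed genes the median difference was -0.107 on the log2 scale, beside 0.026 for all genes tested. The 52 include the 14 genes below the filter, whereas the genes tested all passed it. The counts depended on the number of samples: without RDF replicate 1 there were 9 falls and 1 rise, without RDF replicate 2 there were 10 and 2, without DMSO replicate 1 there were 15 and 5, and without DMSO replicate 2 there were 14 and 3. The calls of 10 genes were kept in each of these 4 fits, namely the falls of Col1a1, Postn, Lox, Col18a1, Bgn, Col1a2, Fbln2, Nid2 and Thbs1 and the rise of Dcn. Both RDF values lay below both DMSO values for 30 of the 52 genes and above them for 12. The shares of all genes tested were 28.5% and 37.1%, again without genes below the filter.

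**Figure D1:**
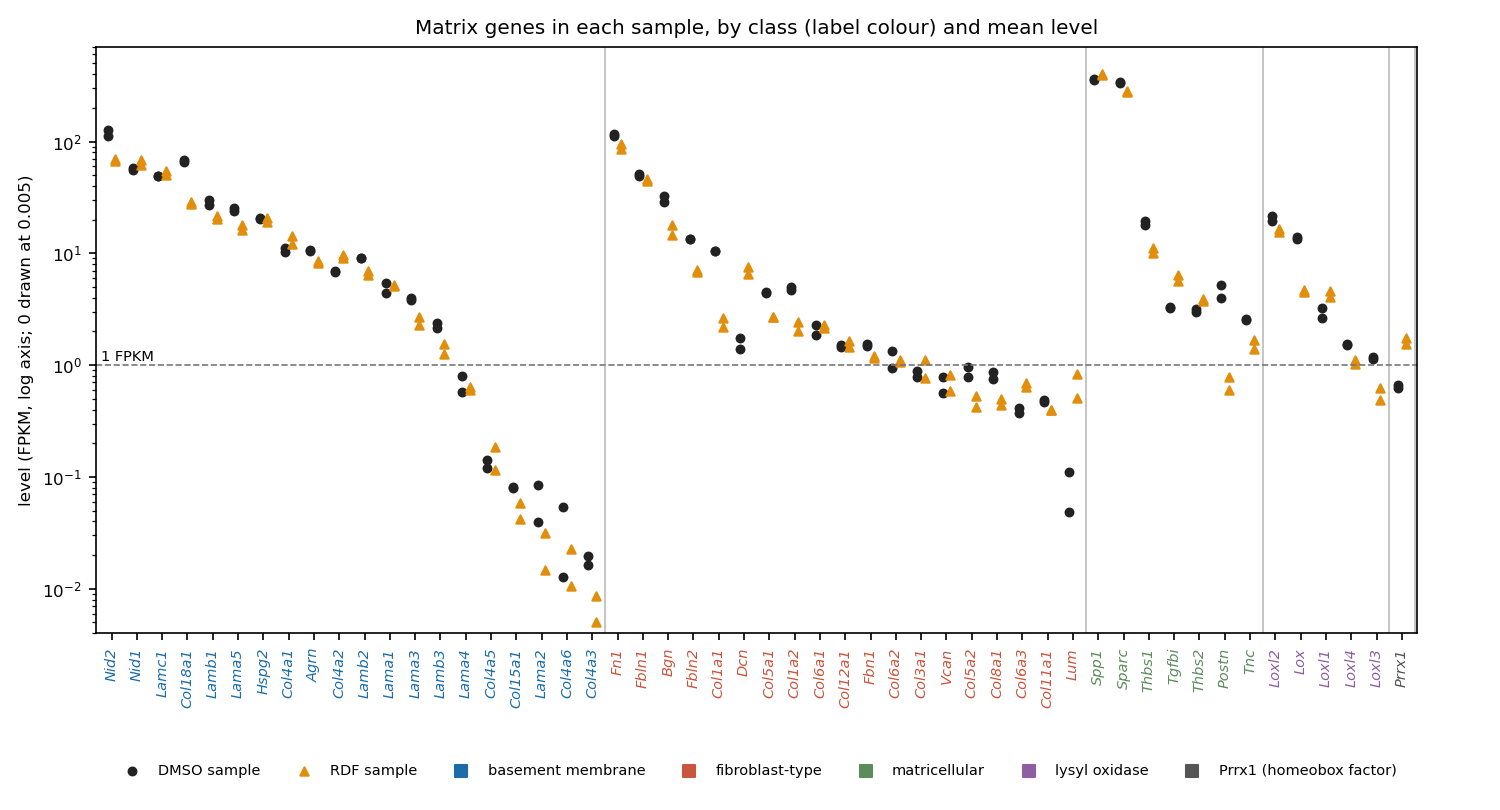
Levels of the 52 matrix genes in each sample, in FPKM on a log axis, with circles for the 2 DMSO-treated and triangles for the 2 RDF-treated samples. Spp1 and Sparc stand highest, 4 basement membrane collagens and Lama2 lie far below 1 FPKM, and the triangles of Col1a1, Postn and Lox sit well below their circles whereas those of Dcn, Lum and Prrx1 sit above.

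Among the 7 basement membrane collagens, Col18a1 fell and Col4a2 rose. Col18a1 (chromosome 10, 76514923 to 76629293 in NCBIM37, the assembly mm9), which encodes the core of a heparan sulfate proteoglycan whose end fragment is endostatin, was at 68.7 and 66.2 FPKM in the DMSO-treated samples and at 27.4 and 28.8 FPKM in the RDF-treated samples. It was the highest collagen of the list in both conditions, and its groups lay far apart. On the log2 scale it fell by 1.23 (standard error 0.057, adjusted p = 0.000332).

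Of the type IV collagen chains, Col4a2 alone passed the test. Col4a1 and Col4a2 encode the chains of its common trimer and lie head to head on chromosome 8, with annotated starts 21 bases apart on opposite strands in NCBIM37. Col4a2 was at 6.93 and 6.87 FPKM with DMSO and at 9.08 and 9.57 FPKM with RDF, a rise of 0.39 (standard error 0.075, adjusted p = 0.0184). Col4a1 was at 10.3 and 11.2 FPKM with DMSO and at 12.1 and 14.3 FPKM with RDF, so both RDF values were higher, but the difference of 0.27 (95% interval 0.03 to 0.50) did not pass after adjustment (adjusted p = 0.102). The Col4a2 call was lost without DMSO replicate 2 or either RDF sample, with an adjusted p of up to 0.103. The annotated ends of these genes overlap, and whether the counting used strand is not stated. The window below, from 250 bases before to 50 bases after the Col4a2 start, is shown because it holds both starts. It comes from RefSeq on build GRCm38.p6 at chr8:11312555-11312854, plus strand, with capitals marking GGGCGG, the GC box bound by Sp1, or its reverse complement.
Col4a2: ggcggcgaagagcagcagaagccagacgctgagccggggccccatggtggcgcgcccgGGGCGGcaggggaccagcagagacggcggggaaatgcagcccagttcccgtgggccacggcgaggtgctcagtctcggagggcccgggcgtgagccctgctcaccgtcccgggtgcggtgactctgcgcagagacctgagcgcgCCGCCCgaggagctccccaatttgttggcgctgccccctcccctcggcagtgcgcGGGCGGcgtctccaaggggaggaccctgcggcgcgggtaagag
The other type IV chains were near the limit of detection. Col4a3, Col4a5 and Col4a6 had means between 0.0111 and 0.141 FPKM, which stand for between 0 and 15.1 fragments per sample, and Col15a1 stood at 0.0657 FPKM.

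All 5 laminin chains that passed the test fell, and they were α and β chains. Lama5, the α chain of the laminin that mouse embryonic stem cells adhere to, was at 25.2 and 23.8 FPKM with DMSO and at 16.1 and 17.9 FPKM with RDF, a difference of -0.50 (standard error 0.075, adjusted p = 0.00843). Lamb1, the β chain shared by most early laminins, was at 29.8 and 26.8 FPKM with DMSO and at 21.5 and 20.5 FPKM with RDF, a difference of -0.41 (standard error 0.073, adjusted p = 0.0141). Neither gene had overlapping groups. Lama3, Lamb2 and Lamb3 fell by 0.49, 0.40 and 0.45, with adjusted p between 0.0184 and 0.0423. Lama3 and Lamb3 are chains of the epithelial laminin that anchors hemidesmosomes. Lamc1, the γ chain that pairs with Lamb1, was the highest laminin gene, at 49.4 and 49.4 FPKM with DMSO and at 49.8 and 54.8 FPKM with RDF. Its difference was 0.08 (95% interval -0.08 to 0.23, adjusted p = 0.412). Lama1, the α chain of the first embryonic laminin, was at 5.44 and 4.37 FPKM with DMSO and at 5.07 and 5.23 FPKM with RDF, and the groups overlapped (95% interval -0.21 to 0.33, adjusted p = 0.708). Its sign turned to -0.0074 with quantile normalization. Lama2 and Lama4 stayed below the filter, at 0.0426 and 0.653 FPKM. None of the 5 laminin calls held in all fits that left out 1 sample. Lama5 was lost without RDF replicate 1 (adjusted p = 0.0574), Lamb1 without either RDF sample (up to 0.0947), Lama3 and Lamb2 also without DMSO replicate 2 (up to 0.110 and 0.0946), and Lamb3 whichever sample was left out (up to 0.185).

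Some chains of a family stood in different proportions in the conditions. Lama5 was 4.63 and 5.43 times as high as Lama1 with DMSO and 3.17 and 3.41 times as high with RDF. The ratio of Lamb1 to Lamc1 was 0.603 and 0.542 with DMSO and 0.433 and 0.374 with RDF. Neither pair of groups overlapped, in contrast to the ratio of Col4a1 to Col4a2, which was 1.49 and 1.64 with DMSO and 1.33 and 1.495 with RDF. These ratios are a description with no test, and the ratios of Lamb1 to Lamc1 and of the nidogens were chosen after their values had been seen.

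**Figure D2:**
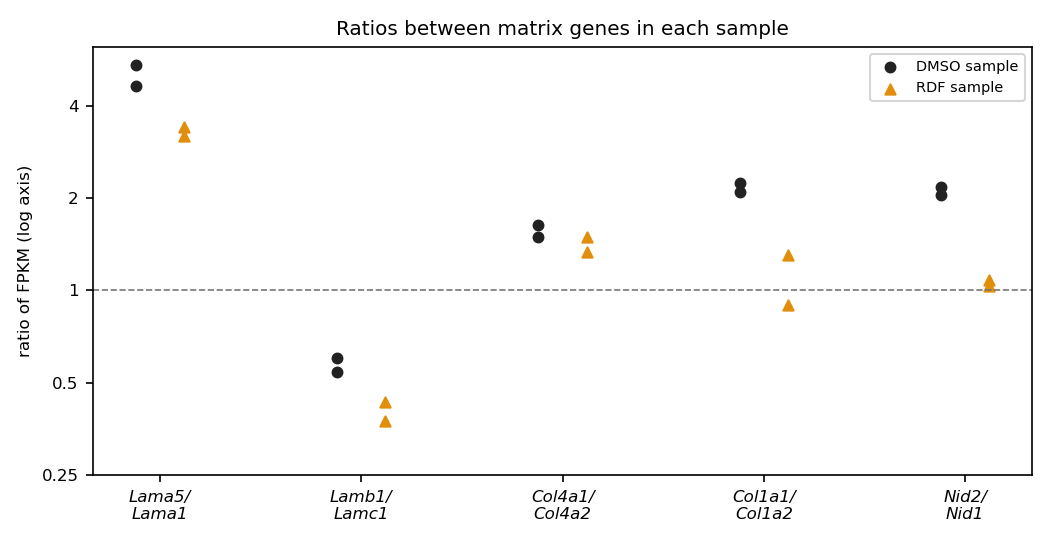
Ratios of FPKM between matrix genes in each sample, on a log axis, with circles for DMSO-treated and triangles for RDF-treated samples and a dashed line at a ratio of 1. Only Col4a1/Col4a2 has overlapping groups among these 5 ratios, and Nid2/Nid1 drops to near 1.

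The nidogens, which bridge laminin and type IV collagen, differed from each other. Nid2 was the highest basement membrane gene in DMSO, at 126 and 113 FPKM, and stood at 66.7 and 69.8 FPKM in RDF, a fall of 0.80 (standard error 0.069, adjusted p = 0.00198). Nid1 was at 58.0 and 55.3 FPKM with DMSO and at 61.6 and 67.8 FPKM with RDF, a difference of 0.19 (95% interval 0.03 to 0.35) that did not pass (adjusted p = 0.0949). The ratio of Nid2 to Nid1 was therefore 2.17 and 2.04 with DMSO and 1.08 and 1.03 with RDF. Of the heparan sulfate proteoglycans, Agrn (agrin) fell by 0.31 (adjusted p = 0.0291), a call lost whichever sample was left out, with an adjusted p of up to 0.125. Hspg2 (perlecan) was at 20.8 and 20.3 FPKM with DMSO and at 19.0 and 20.6 FPKM with RDF, with overlapping groups (95% interval -0.22 to 0.11, adjusted p = 0.612).

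In all, 8 of the 14 basement membrane genes tested fell and 1 rose, beside 8.28% and 13.3% of all genes tested. Another 5 did not pass, and 6 of the 20 were below the filter. Without RDF replicate 1, RDF replicate 2 or DMSO replicate 2, fewer of the basement membrane genes tested were called as falls. The summed level of the 20 genes was 427 and 404 FPKM with DMSO and 308 and 329 FPKM with RDF.

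**Figure D3:**
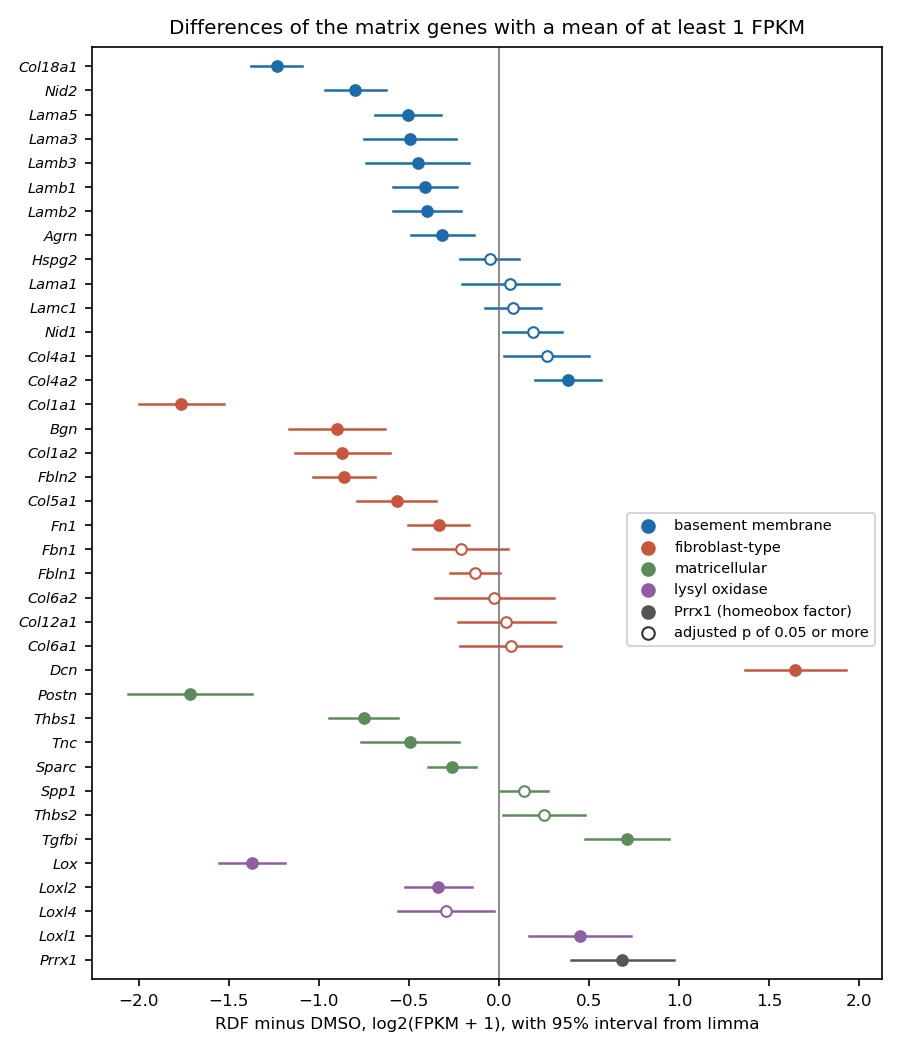
Differences between RDF-treated and DMSO-treated samples for the 38 matrix genes tested, in log2(FPKM + 1), with 95% intervals from limma and open points where the adjusted p is 0.05 or more. Within each class most filled points lie left of 0, and Dcn, at 1.65, stands far to the right of the other fibroblast-type genes.

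All 3 fibril-forming collagens that were tested fell, from low levels. Col1a1 (chromosome 11, 94797538 to 94814356 in NCBIM37), the main chain of type I collagen, was at 10.5 and 10.4 FPKM in the DMSO-treated samples and at 2.62 and 2.17 FPKM in the RDF-treated samples, 4.38-fold lower by the ratio of means. Its difference of -1.76 on the log2 scale had a standard error of 0.097 and an adjusted p of 0.000577. It was the largest fall with a pseudocount of 1, whereas with 0.1 Postn fell more (-2.56, beside -2.09 for Col1a1), as it did with 0.5 (-2.08 and -1.93) and by the ratio of means. Col1a2, the partner chain, was at 5.05 and 4.66 FPKM with DMSO and at 2.00 and 2.42 FPKM with RDF, a fall of 0.87 (standard error 0.108, adjusted p = 0.00507). The ratio of Col1a1 to Col1a2 was 2.09 and 2.24 with DMSO and 1.31 and 0.898 with RDF, so the groups did not overlap. Col5a1, whose type V collagen starts fibrils, was at 4.47 and 4.44 FPKM with DMSO and at 2.69 and 2.67 FPKM with RDF, a fall of 0.57 (adjusted p = 0.00974) that was lost without either RDF sample, with an adjusted p of up to 0.0663.
The Col1a2 promoter window is printed because both type I chains fell. It lies at chr6:4505368-4505667, plus strand, in RefSeq on GRCm38.p6, and capitals mark GGGCGG and CAGACA, a short sequence bound by Smad proteins.
Col1a2: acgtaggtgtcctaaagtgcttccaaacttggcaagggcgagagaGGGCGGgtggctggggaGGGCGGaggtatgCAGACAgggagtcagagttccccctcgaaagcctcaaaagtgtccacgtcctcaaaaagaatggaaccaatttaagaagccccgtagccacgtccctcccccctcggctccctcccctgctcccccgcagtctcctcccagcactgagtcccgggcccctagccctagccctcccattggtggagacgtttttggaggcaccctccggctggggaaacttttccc
Col5a2, Col11a1 and Col3a1 were below the filter. Col5a2 was at 0.781 and 0.961 FPKM with DMSO and at 0.526 and 0.418 FPKM with RDF. Col3a1, its neighbour 24614 bases away on chromosome 1, was at 0.779 and 0.879 FPKM with DMSO and at 0.774 and 1.11 FPKM with RDF, with overlapping groups.

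The other interstitial collagens showed no call. Col6a1, the highest of them at 2.16 FPKM, had a difference of 0.06 (95% interval -0.22 to 0.35), Col6a2 of -0.02 (-0.35 to 0.30) and Col12a1 of 0.04 (-0.23 to 0.31), with adjusted p between 0.713 and 0.911. Col6a3 was below the filter, at 0.411 and 0.375 FPKM with DMSO and at 0.686 and 0.636 FPKM with RDF, and Col8a1 at 0.865 and 0.745 FPKM and at 0.498 and 0.444 FPKM. The groups did not overlap for either gene, and they lay in opposite order.

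Of the 4 interstitial glycoproteins, Fbln2 and Fn1 fell. Fibronectin (Fn1), which binds integrins and organises other fibres, was the highest fibroblast-type gene, at 117 and 112 FPKM with DMSO and at 85.6 and 95.5 FPKM with RDF. Its fall of 0.33 (adjusted p = 0.0223) was lost without DMSO replicate 1 or either RDF sample, with an adjusted p of up to 0.111, and had an adjusted p of 0.0515 without the mean-variance trend. Fibulin-2 (Fbln2) was at 13.3 and 13.4 FPKM with DMSO and at 7.05 and 6.77 FPKM with RDF, a fall of 0.86 (standard error 0.071, adjusted p = 0.00164). Fbln1, at 51.4 and 48.9 FPKM with DMSO and 44.7 and 46.6 FPKM with RDF, and Fbn1, the gene of fibrillin-1, did not pass, with adjusted p of 0.148 and 0.206.

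The small leucine-rich proteoglycans, which coat collagen fibrils, split. Decorin (Dcn, chromosome 10, 96942245 to 96980777 in NCBIM37), which binds type I collagen and also TGF-β, was at 1.74 and 1.40 FPKM in the DMSO-treated samples and at 6.56 and 7.51 FPKM in the RDF-treated samples. This rise of 1.65 on the log2 scale (standard error 0.116, adjusted p = 0.00112), 4.49-fold by the ratio of means, was the largest on this scale among the 38 genes tested, and leaving out any 1 sample gave between 1.55 and 1.74. Lumican (Lum), which lies 47357 bases from Dcn on chromosome 10 on the same strand, was below the filter, at 0.110 and 0.0485 FPKM with DMSO and at 0.513 and 0.827 FPKM with RDF. These values stand for about 2.21 and 1.11 fragments with DMSO and 13.1 and 19.25 with RDF, and without the filter the difference of 0.62 had an adjusted p of 0.0419. By the ratio of means Lum was 8.47-fold higher, above Dcn, from these few fragments. Biglycan (Bgn), a close relative of decorin, moved the opposite way. It was at 28.9 and 32.8 FPKM with DMSO and at 14.5 and 17.8 FPKM with RDF, a fall of 0.90 (standard error 0.109, adjusted p = 0.00478). Vcan, a large hyaluronan-binding proteoglycan, was at 0.688 FPKM with overlapping groups.

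Of the 12 fibroblast-type genes tested, 6 fell, Dcn rose and 5 did not pass, and 7 of the 19 were below the filter. Of all genes tested, 8.28% fell and 13.3% rose. Between 4 and 6 of the 12 fell with any 1 sample left out. A fall was thus called for 6 of 12 genes here and for 8 of 14 basement membrane genes, and no test of a difference between the classes was made.

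**Figure D4:**
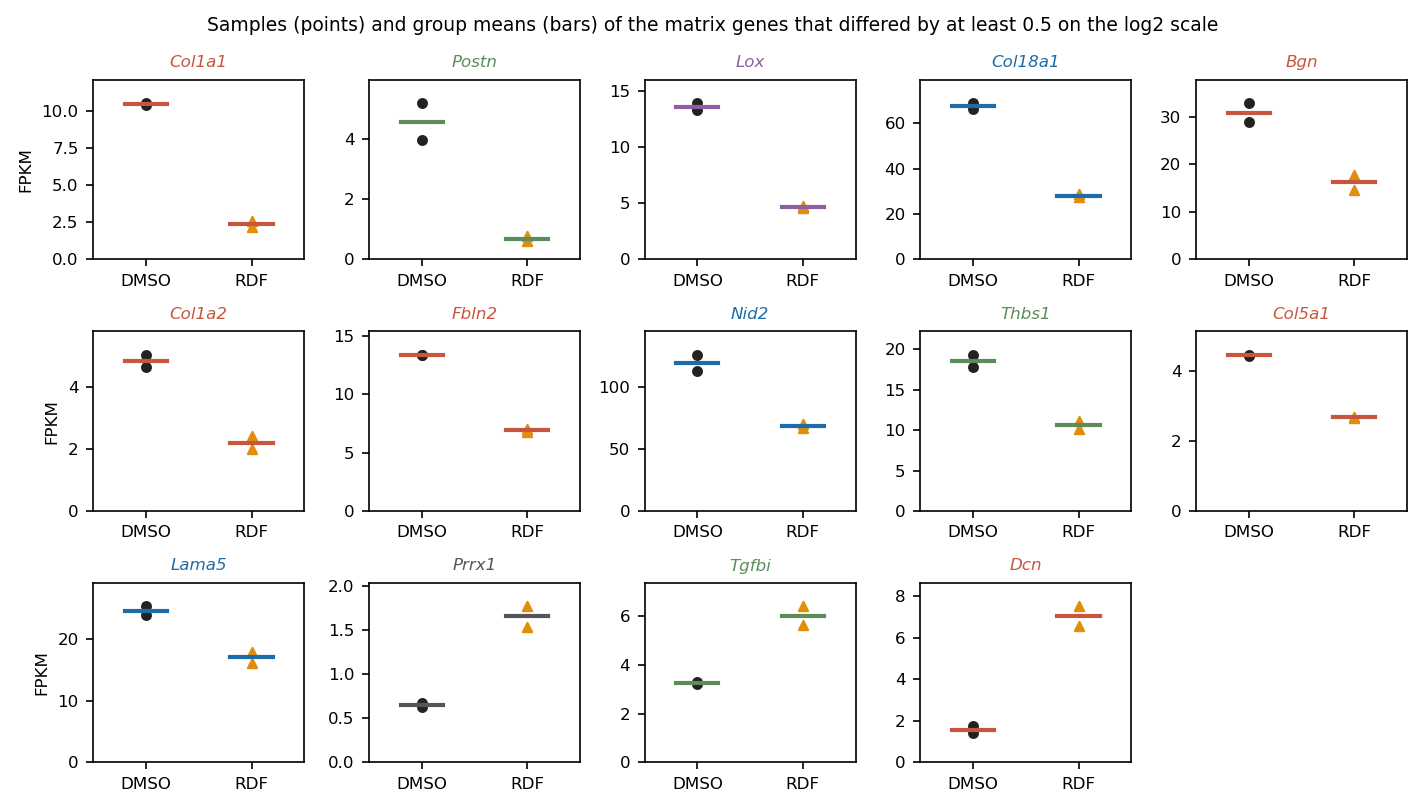
Levels in FPKM, on axes that start at 0, of the 14 matrix genes with an adjusted p under 0.05 and a difference of at least 0.5 on the log2 scale, with a point per sample and a bar at the mean of each group. In each panel the groups do not overlap, with 11 genes lower and Prrx1, Tgfbi and Dcn higher in RDF.

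Matricellular proteins are secreted into the matrix to change how cells read it. Spp1 (osteopontin) and Sparc were the highest of all 52 genes. Spp1 was at 356 and 363 FPKM with DMSO and at 400 and 393 FPKM with RDF, a difference of 0.14 that did not pass (adjusted p = 0.114). Sparc, which binds collagen, was at 343 and 331 FPKM with DMSO and at 284 and 278 FPKM with RDF, a fall of 0.26 (adjusted p = 0.0234). Its adjusted p was 0.0683 with quantile normalization, 0.0549 without the mean-variance trend, and up to 0.140 without DMSO replicate 1 or either RDF sample.

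The larger changes were in less abundant genes of this class. Periostin (Postn, chromosome 3, 54165031 to 54194961 in NCBIM37), which binds type I collagen and fibronectin and is known as a TGF-β target, was at 5.16 and 3.96 FPKM with DMSO and at 0.595 and 0.784 FPKM with RDF, 6.62-fold lower by the ratio of means. It fell by 1.71 on the log2 scale (standard error 0.141, adjusted p = 0.00164), and it passed the filter only through its DMSO values. Thrombospondin-1 (Thbs1), an activator of latent TGF-β, was at 19.3 and 17.8 FPKM with DMSO and at 11.1 and 10.1 FPKM with RDF, a fall of 0.75 (standard error 0.079, adjusted p = 0.0032). Its paralog Thbs2 was at 3.17 and 2.97 FPKM with DMSO and at 3.94 and 3.75 FPKM with RDF and did not pass (adjusted p = 0.105). Tenascin C (Tnc) fell by 0.49 (adjusted p = 0.0276), a call lost whichever sample was left out, with an adjusted p of up to 0.129. Tgfbi, named for its induction by TGF-β in other cells, rose from 3.32 and 3.23 FPKM with DMSO to 6.41 and 5.63 FPKM with RDF, by 0.71 (standard error 0.096, adjusted p = 0.00632). Without RDF replicate 1 its adjusted p was 0.0521. Of these 7 genes, 4 fell, 1 rose and 2 did not pass. Of all genes tested, 8.28% fell and 13.3% rose.
The promoter windows of Postn and Tgfbi are printed as those of the largest fall and the largest rise among the members with a window. Postn, of whose 2 windows the downstream one is shown, lies at chr3:54360857-54361156 and Tgfbi at chr13:56609336-56609635, both on the plus strand of GRCm38.p6 (RefSeq). Capitals mark TATAAA, the TATA box, in Postn and GGGCGG or its reverse complement in Tgfbi.
Postn: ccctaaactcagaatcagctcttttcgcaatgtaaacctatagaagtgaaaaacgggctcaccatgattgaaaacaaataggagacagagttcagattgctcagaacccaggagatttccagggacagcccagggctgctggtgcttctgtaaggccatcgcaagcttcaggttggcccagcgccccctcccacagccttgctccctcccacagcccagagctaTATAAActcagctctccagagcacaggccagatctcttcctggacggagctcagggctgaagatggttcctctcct
Tgfbi: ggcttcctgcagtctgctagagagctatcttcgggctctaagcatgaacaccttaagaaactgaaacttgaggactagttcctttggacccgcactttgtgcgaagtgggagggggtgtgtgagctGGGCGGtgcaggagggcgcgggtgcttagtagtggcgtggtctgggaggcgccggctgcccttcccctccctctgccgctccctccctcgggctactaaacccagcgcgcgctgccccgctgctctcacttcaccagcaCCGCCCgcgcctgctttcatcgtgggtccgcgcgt

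The lysyl oxidases, copper enzymes that start the crosslinking of collagen and elastin, also split. Lox, the founding member, was at 13.3 and 13.9 FPKM with DMSO and at 4.55 and 4.73 FPKM with RDF, a fall of 1.37 (standard error 0.075, adjusted p = 0.000577). Loxl2, which acts on type IV collagen and was the highest of the 5, was at 19.5 and 21.4 FPKM with DMSO and at 15.4 and 16.5 FPKM with RDF, a fall of 0.34 (adjusted p = 0.0282). Loxl1, linked to elastic fibres, was at 3.24 and 2.64 FPKM with DMSO and at 4.10 and 4.64 FPKM with RDF, a rise of 0.45 (adjusted p = 0.0411). The calls of Loxl1 and Loxl2 were lost without DMSO replicate 2 or either RDF sample, with adjusted p of up to 0.190 and 0.136, and that of Loxl1 also with quantile normalization (adjusted p = 0.0629) and with replicate as a block (adjusted p = 0.0536). Loxl4 did not pass (difference -0.29, adjusted p = 0.108). Loxl3 was below the filter, at 1.14 and 1.19 FPKM with DMSO and at 0.493 and 0.622 FPKM with RDF, and had an adjusted p of 0.0438 without the filter. In both genes the RDF values were below the DMSO values.

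Prrx1, which marks limb and craniofacial mesenchyme, was at 0.671 and 0.624 FPKM with DMSO and at 1.77 and 1.54 FPKM with RDF. It rose by 0.69 (standard error 0.117, adjusted p = 0.0124). Without RDF replicate 1 its mean was under 1 FPKM, so it was not tested in that fit. Without RDF replicate 2 the difference was 0.75 and the call was lost. Prrx1 passed the filter only through its RDF values.

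Genes that make, modify or sense the matrix were read from lists of their own. Of 18 tested genes of collagen synthesis, 6 fell, namely Pcolce2, Fkbp10, Serpinh1, Glt25d1, Plod1 and Plod2, and 12 did not pass. A fall was called for 8.28% of all genes tested. Pcolce2, which enhances the cleavage of procollagen ends, was at 13.5 and 13.9 FPKM with DMSO and at 4.58 and 4.76 FPKM with RDF, a fall of 1.38 (adjusted p = 0.000561). Serpinh1, the collagen chaperone of the endoplasmic reticulum, was at 97.5 and 106 FPKM with DMSO and at 67.1 and 73.5 FPKM with RDF, a fall of 0.52 (adjusted p = 0.00623) whose adjusted p was 0.0524 without RDF replicate 1. Pcolce2 alone of the 6 held whichever sample was left out: Fkbp10 was lost without RDF replicate 1 (adjusted p = 0.0502), Glt25d1 without either RDF sample, Plod1 without DMSO replicate 1 or either RDF sample, and Plod2 without each of the 4 samples, with adjusted p of up to 0.0683, 0.102 and 0.132. Of 18 tested matrix receptors, 4 fell and 3 rose, beside 8.28% and 13.3% of all genes tested. Ddr1, a collagen-binding tyrosine kinase, fell by 0.76 (adjusted p = 0.00489), and Itgb1, the β chain of most collagen and laminin integrins, fell by 0.27 (adjusted p = 0.0208). Itgb3 and Itga3 rose by 0.43 and 0.32 (adjusted p = 0.027 and 0.0133). The calls of Itgb1, Itgb3 and Itga3 were lost without either RDF sample, those of Itgb1 and Itgb3 also without DMSO replicate 1, and that of Itgb3 also without DMSO replicate 2, with adjusted p of up to 0.118, 0.132 and 0.0793. Of the 28 other collagen and laminin genes, 22 were below the filter and 5 of the 6 tested did not pass.

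Markers of cells that could add matrix RNA were read in the same samples. The 15 fibroblast markers summed to 46.9 and 45.5 FPKM with DMSO and to 40.6 and 35.0 FPKM with RDF, and 7 of them had a mean under 1 FPKM. Both RDF values lay above both DMSO values for 7 of the 15 and below them for 4. The shares of all genes tested, which exclude genes with a mean under 1 FPKM, were 37.1% and 28.5%. The median difference over the list was 0.097, and the lower sum rested on Tagln, Thy1 and Acta2. Of the 8 tested, Tagln and Acta2, which encode smooth muscle cytoskeletal proteins, and Thy1 fell by 1.70, 1.71 and 0.67. Ly6a, a surface antigen of many mesenchymal cells, rose by 0.85. The adjusted p of these calls lay between 0.00219 and 0.0111, and of all genes tested 8.28% fell and 13.3% rose. Acta2, with means of 3.57 FPKM with DMSO and 0.380 FPKM with RDF, passed the filter only through its DMSO values. The calls of Acta2 and Ly6a were lost without RDF replicate 1 (adjusted p = 0.0531 and 0.0507), and that of Thy1 without RDF replicate 2 (adjusted p = 0.0544). Of the other listed fibroblast markers, Fap had a mean of 0.0232 FPKM. Pdgfra was at 0.455 and 0.425 FPKM with DMSO and at 0.636 and 0.856 FPKM with RDF. Cd248, with a mean of 0.776 FPKM, went the other way, with both RDF values below both DMSO values. Twist1 and Pdgfrb did not pass (adjusted p = 0.306 and 0.241). The 15 markers of primitive and parietal endoderm, which deposit a laminin-rich membrane, summed to 21.6 and 22.3 FPKM with DMSO and to 25.7 and 26.4 FPKM with RDF. Of the 5 tested, Gata6 and Plat rose by 0.78 and 0.49 (adjusted p = 0.0428 and 0.0183), beside 13.3% of all genes tested that rose. The 3 others did not pass, and Ttr was at 0 in all 4 samples. Gata6 and Plat were lost without either RDF sample, and Plat also without DMSO replicate 1, with adjusted p of up to 0.173 and 0.108. The Gata6 call was lost too with a pseudocount of 0.1 (adjusted p = 0.0502), median-ratio scaling (0.0505), quantile normalization (0.0621) and no filter (0.114), and that of Plat with no filter (0.0539). Of the 9 pluripotency markers 4 fell and 3 rose, beside 8.28% and 13.3% of all genes tested. The sum of the 9 was 7860 and 7796 FPKM with DMSO and 5092 and 4619 FPKM with RDF. Most of that difference was in Dppa5a, with means of 5516 FPKM with DMSO and 3035 FPKM with RDF. Pou5f1 (1254 and 985 FPKM), Tdgf1 (499 and 307 FPKM) and Utf1 (249 and 142 FPKM) also fell, whereas Zfp42, Klf4 and Sox2 rose. The part of these cell types in the matrix results was not tested.

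Of the 52 matrix genes, 35 had promoter windows in the RefSeq table, 43 windows in all. Motifs were sought on both strands of these windows of 300 bases and of all 32851 windows. GGGCGG was in 27 of the 43 windows (62.8%) against 35.7% of all windows, CAGACA in 14 (32.6%) against 21%, and TATAAA in 6 (14%) against 13.6%. TGACGTCA, the palindrome bound by CREB, and GTCTAGAC, a palindrome bound by Smad proteins that shares the letters AGAC with CAGACA, were in 0 of the 43, beside 1.79% and 0.213% of all windows. Windows of the same gene can overlap, and a match describes the letters only.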

How the data were processed

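The RNA of 4 samples was sequenced by the authors from stranded mRNA libraries. Per the labels' processing notes, the tools were TopHat2 2.0.14, Bowtie2 2.1.0 and Cufflinks 2.2.1 with build mm9, and the authors deposited FPKM per gene symbol, 1 table per sample. Filters, strand setting and the handling of multiply mapped fragments are not given in the sources used here, so genes with close or overlapping copies are less certain. FPKM keep no counts, so the depth was estimated from 446 to 488 genes with 1 transcript of at least 1500 bases. Between 42.6% and 47.5% of these values lay within 0.1 of a whole fragment, against 20% if spread evenly, and fragments are therefore approximate and cover counting error only.

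Values were tested as log2(FPKM + 1) with limma 3.58.1 (lmFit, eBayes with a mean-variance trend) in R 4.3.3, two-sided, RDF against DMSO, with Benjamini-Hochberg adjustment over the 11733 symbols whose mean reached 1 FPKM and a threshold of 0.05. The fit was tested on simulated data. The replicate numbers were not taken as pairs: deviations of same-numbered samples correlated with a Pearson r of 0.134 across genes, with 2 pairs and no label that ties them. The members and lists were chosen with earlier results of these data known. Sample values are printed for members with an adjusted p under 0.05 and a difference of at least 0.5, for the highest of each family, and for others whose pattern is described, which were chosen after their values were seen. Of the other lists at most 4 called genes are described with values, and further names were added after their values were seen. A result of these lists is not reported here. Positions are from GENCODE M1 on NCBIM37 (mm9), and promoter sequences from RefSeq on GRCm38.p6.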

Additional observations from a re-analysis of the deposited data

How the results depend on the processing

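With a pseudocount of 0.1 or 0.5 or median-ratio scaling, all 38 tested matrix genes kept their direction and their side of the threshold. Leaving out each sample in turn changed most: the falls ranged from 9 to 15 and the rises from 1 to 5 over all members, from 2 to 6 and from 0 to 1 in basement membrane genes, and from 3 to 4 and from 0 to 2 in matricellular genes and lysyl oxidases. For the other genes of matrix handling they ranged from 3 to 8 and from 0 to 2. In these fits 1 group holds a lone sample, assumed to vary like the others. At an unadjusted p under 0.05 from limma, the only tool used, the fits with 0 rises still had 1 to 3 in basement membrane genes, 2 in matricellular genes and lysyl oxidases, and 2 to 4 in matrix handling. Requiring a mean of at least 5 FPKM left 1 rise over all members, 0 in fibroblast-type genes and 0 in matricellular genes and lysyl oxidases (0 and 1 at an unadjusted p under 0.05), since Dcn, Tgfbi, Loxl1 and Prrx1 are below that level. Without a filter, 5 basement membrane genes fell, 2 fibroblast-type genes rose (Dcn and Lum), and 1 matricellular gene or lysyl oxidase and 1 other gene of matrix handling rose. The calls of 7 members (Lama3, Lamb3, Agrn, Fn1, Tnc, Loxl1 and Loxl2) were lost there, where more genes were tested, and those of Fn1 and Sparc without the mean-variance trend, which added Loxl4 (adjusted p = 0.0419). With the replicate block 1 matricellular gene or lysyl oxidase rose instead of 2, since Loxl1 was lost, and quantile normalization gave the same number. The block changed no other call of a member. Signs that turned were those of genes without a call: Lama1 (-0.0074 with quantile normalization, and -0.067 to 0.19 when each sample was left out), Hspg2 (-0.11 to 0.0055), Col6a1 (-0.033 to 0.16), Col6a2 (-0.16 to 0.11) and Col12a1 (-0.015 to 0.097). Depth limits the genes below 1 FPKM, and 2 samples a group limit the rest.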
